A study of Homo sapiens with 6 samples.

Results

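The genes described here are *HMGA1*, *HMGA2*, *LIN28A*, *LIN28B*, *IGF2BP1*, *IGF2BP2*, *IGF2BP3* and *DIS3L2*, 8 of the 20347 gene symbols for which RNA-seq values were deposited. They were chosen by symbol, as the HMGA, LIN28 and IGF2BP oncofetal families together with the nuclease DIS3L2, and *HMGA2* was picked because it was known to be higher in *SAMD1* KO cells. The rise of *HMGA2* is therefore given as a description without a test, while the other members were tested. PaTu8988t is an established human cell line of pancreatic ductal adenocarcinoma (PDAC). Gene expression was measured in 3 replicates of control cells, which received the Lenti-CRISPR V2 plasmid with an unspecific control guide RNA, and in 3 *SAMD1* KO samples, which received guide RNAs against *SAMD1*. Per the study's methods the KO samples are 3 independent clones, here called clones 1 to 3 after the replicate numbers of the labels. Both groups were grown in the same high-glucose medium with fetal bovine serum, and whether the control replicates were single clones is not given in the sources used here. Loss of SAMD1 and descent from a single cell can therefore not be told apart within 1 clone, and differences between clones were read from 1 library each.

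The members belong to a small regulatory network of early development. HMGA1 and HMGA2 are architectural chromatin proteins that bind the minor groove of AT-rich DNA through AT-hooks. HMGA2 is high in embryonic tissue, falls in most adult tissues and returns in many carcinomas, pancreatic ones included. The let-7 family of microRNAs represses *HMGA2*, *LIN28B*, *IGF2BP1* and other fetal genes through sites in their 3′ UTRs. LIN28A and LIN28B are RNA-binding proteins that block let-7 maturation, in part through oligouridylation of its precursor. DIS3L2 is the 3′-to-5′ exonuclease that degrades the uridylated precursor. IGF2BP1, IGF2BP2 and IGF2BP3 are RNA-binding proteins that stabilise or localise mRNAs and read N6-methyladenosine (m6A).

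The sequences examined for these genes were the let-7 seed and its matches. In RefSeq (build GRCh38), 9 mature sequences of the let-7 family come from 12 loci and share 1 seed, bases 2 to 8 of the microRNA. Of these, 4 are shown to mark what is constant, with the seed in capitals and the remainder in lower case.
let-7a-5p: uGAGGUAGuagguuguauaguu
let-7d-5p: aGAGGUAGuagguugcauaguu
let-7g-5p: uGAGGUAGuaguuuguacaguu
miR-98-5p: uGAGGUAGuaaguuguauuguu

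The matches searched for were the octamer CTACCTCA and the heptamers CTACCTC and TACCTCA, on the sense strand of the annotated 3′ UTR of each MANE Select transcript (GENCODE 44, GRCh38), with overlapping matches counted once. *HMGA2* holds 7 matches in a 3′ UTR of 2999 bases, all in exon 5 of 5, and 1 of them is an octamer. They are printed because *HMGA2* is the member that differed most, with the match in capitals and the bases before and after it in lower case.
HMGA2 site 1: ccaacgttcgatttCTACCTCAgc
HMGA2 site 2: acctgaataccactTACCTCAaa
HMGA2 site 3: cccactactcaataCTACCTCtg
HMGA2 site 4: accctccaagtctgTACCTCAaa
HMGA2 site 5: tgacttgcaaagacCTACCTCca
HMGA2 site 6: atcaaaacacactaCTACCTCtt
HMGA2 site 7: cttaagtcccagtaTACCTCAtt
Site 1 lies at chr12:65963299-65963322, near the start of the 3′ UTR, and site 7 at chr12:65965819-65965841, both on the plus strand. For contrast, the single match of *HMGA1* and the octamer of *IGF2BP2* are also shown.
HMGA1 site 1: cctctgttcacaaaCTACCTCtg
IGF2BP2 site 1: acacacagaagaagCTACCTCAgg
The *HMGA1* site lies at chr6:34245830-34245852 on the plus strand and the *IGF2BP2* site at chr3:185644218-185644241 on the minus strand. *IGF2BP1* and *LIN28B* hold 5 matches each, *IGF2BP2* holds 3, and *HMGA1*, *LIN28A* and *IGF2BP3* hold 1 each. *DIS3L2* holds 0. A match is a description of the sequence and was not tested as a functional site.

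Libraries held 35589477 to 45172216 reads, recovered as whole numbers from the deposited normalized counts, which are reads divided by 1 size factor per library. At this depth, 3 reads correspond to 2.59 to 3.44 normalized counts. Fold changes are differences of log2(normalized count + 1) between the group means, fitted with limma over the 12773 genes whose mean normalized count reached 10, with Benjamini-Hochberg adjustment of p over all of them. To be called, a gene needed an absolute log2 fold change above 0.5 together with an unadjusted p under 0.01, the study's cut-off. *SAMD1*, the targeted gene (chromosome 19), had 2231, 2382 and 2299 normalized counts in control replicates 1 to 3, while clones 1 to 3 had 874.1, 1082 and 824.8, so the transcript was reduced in each library labelled KO but not lost. The median log2 fold change of all tested genes was −0.0059, and 7.85% of them were called, 5.77% as higher and 2.08% as lower. Of the markers of PDAC epithelium, 6 of 8 were tested, 3 were called higher (*KRT7*, *SOX9* and *KRT18*), and *KRT19* and *CEACAM6* had no reads in any library. The summed level of this list was 63582 to 66793 normalized counts in control and 68902 to 110418 in KO libraries. Of the fibroblast markers 3 were tested and 0 called (sums of 571.4 to 582.2 and 476.7 to 811.2), with *DCN*, *LUM* and *FAP* at 0, and of the leukocyte and endothelial markers 4 were tested and 0 called (sums of 434.7 to 455.0 and 293.7 to 414.7), with *CD3E* at 0. Their part in the results was not tested.

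Of the 8 genes, 5 passed the filter on low values and 3 did not. *HMGA2* was between 3.21 and 26.0 times the control mean in the 3 clones. Of the other 4 tested members, *DIS3L2* was 1.21 times as high in KO as in control cells with an adjusted p below 0.05, whereas *HMGA1*, *IGF2BP2* and *IGF2BP3* stayed above that threshold. None of these 4 was called at the fold-change cut-off, where 7.85% of the tested genes were called, 5.77% as higher and 2.08% as lower. An adjusted p below 0.05 was reached by 13.0% of the tested genes, 8.32% in the higher and 4.70% in the lower direction. *LIN28A*, *LIN28B* and *IGF2BP1* had 0 to 2 reads per library.

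**Figure D1:**
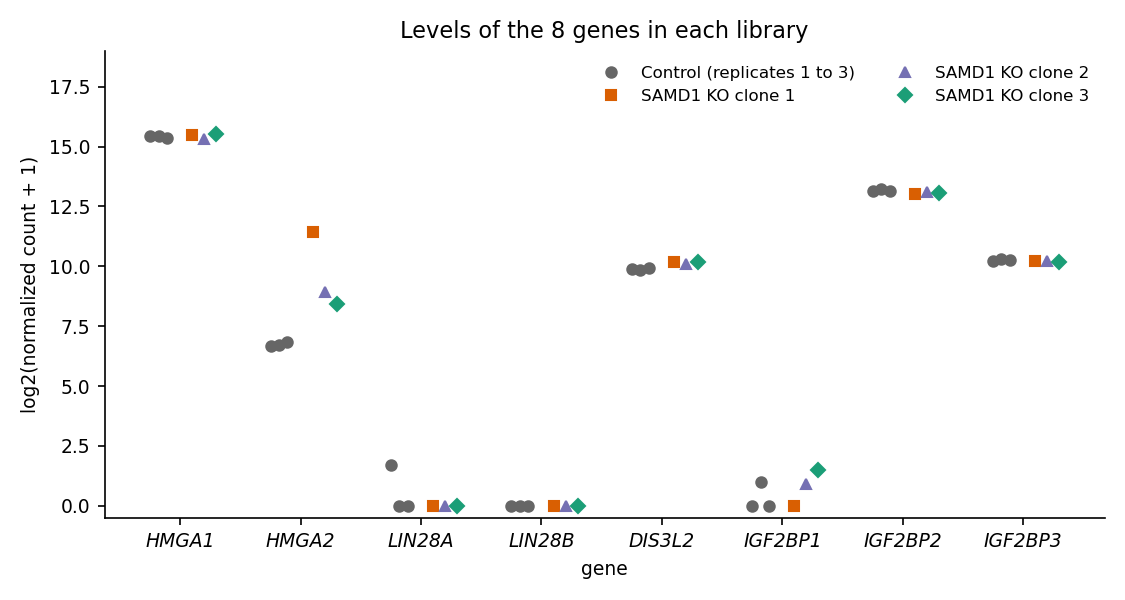
Levels of the 8 genes in the 6 libraries, as log2(normalized count + 1) on the vertical axis and genes on the horizontal axis. Grey circles are the control replicates, and the orange square, violet triangle and green diamond are *SAMD1* KO clones 1 to 3. *HMGA2* is the gene whose clones lie apart from the control replicates and from each other, and *LIN28A*, *LIN28B* and *IGF2BP1* lie at or near 0.

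*HMGA2* (chromosome 12, 65824460 to 65966291, plus strand) had 100.7, 103.7 and 112.3 normalized counts in the control replicates, from 88, 106 and 98 reads. Clones 1 to 3 had 2744, 489.0 and 339.1 normalized counts, from 2775, 566 and 377 reads. There was no overlap between the groups, which held for 37.8% of the tested genes in either direction and 19.2% in the higher one, and clone 1 stood far above clones 2 and 3. The group means were 105.5 ± 6.0 in control and 1191 ± 1347 in KO cells (SD, n = 3 each), so the SD between clones was larger than their mean. The log2 differences from the control mean were 4.69, 2.20 and 1.68 in clones 1 to 3, equal to 26.0-fold, 4.63-fold and 3.21-fold. The fitted log2 fold change over the 3 clones was 2.86 (standard error 0.69), and it was 1.94 without clone 1. Every clone thus had more *HMGA2* mRNA than any control replicate, and clone 1 set the size of the mean.

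The clones differed from each other by more than counting error. The exact 95% Poisson intervals of the normalized counts, which cover counting error only, were 2643 to 2848 for clone 1, 449.5 to 531.0 for clone 2 and 305.7 to 375.1 for clone 3, and none of them overlapped. Clone 1 had 5.61 times the level of clone 2 and 8.09 times that of clone 3, and clone 2 had 1.44 times that of clone 3. In control cells the intervals ran from 80.7 to 136.8 over the 3 replicates and overlapped one another. The range of *HMGA2* among the clones was 3.01 on the log2 scale, rank 53 of 12773 tested genes, where the median gene had 0.288. Among the control replicates its range was 0.156, and the median gene had 0.112. By the log2 difference of each clone from the control mean, *HMGA2* ranked 2 in clone 1, 78 in clone 2 and 120 in clone 3. Of all tested genes, 3.44%, 4.49% and 4.01% were at least 2-fold above the control mean in clones 1 to 3, and 5.61%, 6.73% and 5.45% were at least 2-fold away from it in either direction.

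*HMGA1* (chromosome 6, 34236873 to 34246231, plus strand), the abundant paralogue, had 44003, 44301 and 42161 normalized counts in the control replicates. In clones 1 to 3 it had 45494, 40930 and 46831. The groups overlapped, and the means were 43488 ± 1159 and 44418 ± 3094 (SD, n = 3 each). On the log2 scale the difference was 0.028 (standard error 0.069, 95% interval −0.13 to 0.19, limma adjusted p = 0.820), and without clone 3 it was −0.011. A difference of more than 0.19 on the log2 scale in either direction lies outside this interval.

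The balance between the paralogues is given as a description, since its difference between the groups follows from the rise for which *HMGA2* was picked. Per kilobase of the MANE Select transcript, *HMGA1* was 937, 916 and 805 times the level of *HMGA2* in the control replicates and 35.6, 179 and 296 times in clones 1 to 3. *HMGA2* was 0.107%, 0.109% and 0.124% of the summed HMGA level per kilobase in control and 2.74%, 0.554% and 0.337% in the clones. *HMGA1* therefore remained the main HMGA transcript in each of the 6 libraries.

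**Figure D2:**
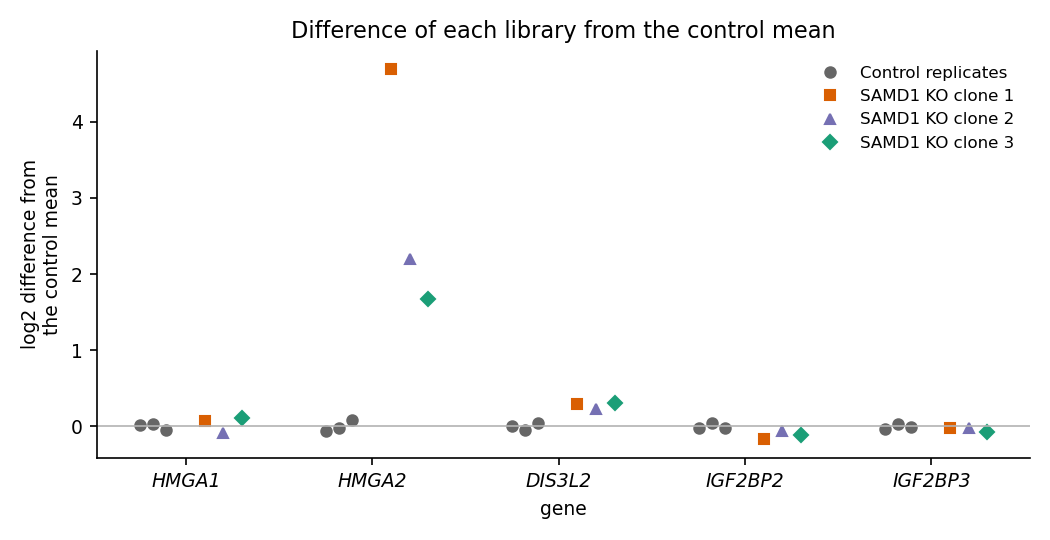
Difference of each library from the control mean, on the log2(normalized count + 1) scale, for the 5 tested members. Grey circles are the control replicates, and the orange square, violet triangle and green diamond are *SAMD1* KO clones 1 to 3. *HMGA2* is at 4.69, 2.20 and 1.68 in clones 1 to 3, and the clones of the other 4 genes lie between −0.17 and 0.30.

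The genes of the LIN28 proteins, the blockers of let-7 maturation, had at most 2 reads in any library. *LIN28A* (chromosome 1, 26410817 to 26429728, plus strand) had 2 reads in control replicate 1 and 0 in the other 5 libraries. *LIN28B* (chromosome 6, 104936616 to 105083332, plus strand) had 0 reads in the 3 control replicates and the 3 clones. By the one-sided 95% limit a count of 0 allows up to 3 reads, 2.59 to 3.44 normalized counts depending on the library, and the exact two-sided Poisson intervals used for *HMGA2* reach 3.19 to 4.23 for a count of 0. A difference between the groups was not detectable for either gene at this depth, and neither was tested.

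*DIS3L2* (chromosome 2, 231961245 to 232344350, plus strand), the nuclease that acts after LIN28, was expressed in both groups. The control replicates had 955.1, 918.7 and 974.8 normalized counts, and clones 1 to 3 had 1160, 1110 and 1169. The clones lay close together and all above the control replicates, as did those of 19.2% of the tested genes, with means of 949.6 ± 28.4 and 1146 ± 31.8 (SD, n = 3 each). This is a log2 fold change of 0.27 (standard error 0.064, 95% interval 0.12 to 0.42, limma adjusted p = 0.0341), a ratio of 1.21 and under the cut-off of 0.5. Leaving out control replicate 1, 2 or 3 raised the adjusted p to 0.148, 0.147 and 0.119. The 20 nearest tested genes, 10 on each side, were also slightly higher, with median log2 differences of 0.20, 0.13 and 0.17 in clones 1 to 3, where the medians of all tested genes were between −0.0036 and 0.0010. Of these neighbours *C2orf72* was called higher (log2 fold change 1.15) and *ITM2C* lower (−0.63), both named after their values were seen. Of all tested genes, 5.77% were called higher and 2.08% lower.

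Of the IGF2BP family, *IGF2BP2* was the most abundant, *IGF2BP3* was moderately expressed and *IGF2BP1* was near 0. *IGF2BP2* (chromosome 3, 185643130 to 185825042, minus strand), which promotes mRNA stability and is a let-7 and HMGA2 target in embryonic tissue, had 9119, 9594 and 9174 normalized counts in the control replicates. It had 8258, 8876 and 8560 in clones 1 to 3. The clones lay below the control replicates without overlap, which was so for 37.8% of the tested genes in one direction or the other and for 18.6% in this one. The means were 9296 ± 260 and 8565 ± 309 (SD, n = 3 each), and the log2 fold change was −0.12 (standard error 0.052, 95% interval −0.24 to 0.0026, limma adjusted p = 0.177). The interval included 0, so the lower level in the clones did not pass the test.

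*IGF2BP3* (chromosome 7, 23310209 to 23470491, minus strand), a marker of poor outcome in several carcinomas, had 1193, 1248 and 1216 normalized counts in control cells, against 1200, 1203 and 1155 in clones 1 to 3. The groups overlapped, with means of 1219 ± 27.8 and 1186 ± 27.2 (SD, n = 3 each). The difference on the log2 scale was −0.040 (standard error 0.060, 95% interval −0.18 to 0.10, limma adjusted p = 0.699). Its annotated extent overlaps that of the antisense gene *MALSU1*, and since the strand setting of the counting is not given in the sources used here, reads from the shared stretch are uncertain. *MALSU1* had a log2 fold change of −0.14 (limma adjusted p = 0.234).

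*IGF2BP1* (chromosome 17, 48997385 to 49056145, plus strand) had 0, 1 and 0 reads in the control replicates and 0, 1 and 2 reads in clones 1 to 3. Each of these counts was under 3 reads, so no fold change was computed and the gene was not tested. The ratio of *IGF2BP2* to *IGF2BP3* per kilobase was 7.63, 7.67 and 7.53 in control replicates 1 to 3, against 6.86, 7.36 and 7.40 in clones 1 to 3. *IGF2BP2* made up 87.3% to 88.5% of the family's summed level per kilobase over the 6 libraries.

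On one scale, normalized counts per kilobase of the MANE Select transcript, the control means ran from *HMGA1* (22650) through *IGF2BP2* (2170), *IGF2BP3* (285) and *DIS3L2* (282) to *HMGA2* (25.6), with *LIN28A*, *LIN28B* and *IGF2BP1* at the bottom. *IGF2BP3* and *DIS3L2* differed by less than the SD between control replicates, and the other expressed neighbours in this order were further apart than their spread. In KO cells *HMGA1* (23135) and *IGF2BP2* (2000) again led, followed by *DIS3L2* (341) and *IGF2BP3* (278). *HMGA2* changed place by clone. At 667 in clone 1 it exceeded both *DIS3L2* and *IGF2BP3*, and at 119 in clone 2 and 82.4 in clone 3 it remained below them. These values depend on the transcript chosen for the length, and levels of other isoforms were not analysed here.

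The genes around *HMGA2* were measured in the same way. Of its 20 nearest tested neighbours on chromosome 12 (63779833 to 68745809), 0 were called, where 7.85% of all tested genes were. The median log2 differences of these neighbours from control were −0.042, −0.091 and −0.037 in clones 1 to 3. The nearest on the left was *MSRB3*, a methionine sulfoxide reductase, with 6577 normalized counts in control and 8273 in KO cells (log2 fold change 0.33, standard error 0.069, limma adjusted p = 0.0243). The nearest on the right was *LLPH*, a nucleolar protein, with a log2 fold change of −0.15 (limma adjusted p = 0.177). The annotation has 4 genes that overlap *HMGA2*, 3 of them antisense and 1 on the same strand, and none is a row of the table. Reads of the antisense genes could not be separated from those of *HMGA2* unless the counting used strand, and strand would not separate those of the gene on the same strand.

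**Figure D3:**
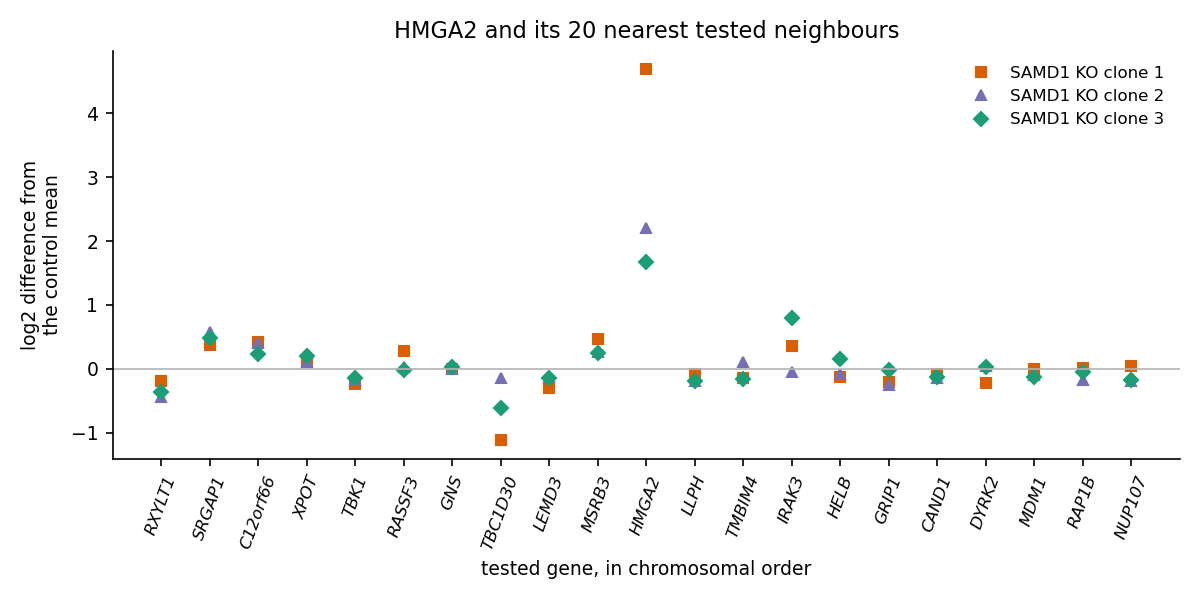
Log2 difference of each *SAMD1* KO clone from the control mean for *HMGA2* and the 10 tested genes on each side of it, in chromosomal order. The orange square, violet triangle and green diamond are clones 1 to 3. *HMGA2* stands at 4.69, 2.20 and 1.68, and the medians of its neighbours are −0.042, −0.091 and −0.037.

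For the 3 members without reads to test, genes around them were measured. Among the 20 neighbours of *IGF2BP1*, 6 were called higher, namely *HOXB4*, *HOXB5*, *HOXB6*, *HOXB8*, *HOXB9* and *SAMD14*, against 5.77% of all tested genes. The HOXB genes are homeobox transcription factors that pattern the body axis, and their annotated extents partly overlap. *HOXB9* had 556.3 normalized counts in control and 1868 in KO cells (log2 fold change 1.74, limma adjusted p = 0.000334), while the nearest tested genes *SNF8* (−0.037) and *ZNF652* (−0.17) were not called. *IGF2BP1* itself had 0 to 2 reads in these libraries. Among the 20 neighbours of *LIN28B*, 4 were called higher, *FAXC*, *POU3F2*, *CD24* and *BEND3*, named after their values were seen. *CD24*, a cell surface sialoglycoprotein, had 30.5 normalized counts in control and 154.8 in KO cells (log2 fold change 2.16, limma adjusted p = 0.0124). The genes next to *LIN28B*, *HACE1* (0.27) and *PREP* (0.10), were not called. Around *LIN28A*, *HMGA1*, *IGF2BP2* and *IGF2BP3*, 0 of 20 neighbours each were called, where 7.85% of all tested genes were called in either direction.

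The other genes of the let-7 pathway gave 1 call. Of 29 tested genes of let-7 biogenesis and turnover outside the 8 members, 1 was called higher and 0 lower. Of all tested genes 5.77% and 2.08% were called in these directions, and the list's median was −0.064 on the log2 scale. The called gene was *MSI1*, an RNA-binding protein of neural stem cells, at 345.2 ± 1.7 normalized counts in control and 455.8, 612.5 and 428.1 in clones 1 to 3 (log2 fold change 0.51, standard error 0.14, limma adjusted p = 0.0561), and the call was lost without any 1 of the control replicates and without clone 2. *SYNCRIP*, an hnRNP protein, was lower in the clones with an limma adjusted p of 0.0146 and a log2 fold change of −0.29, under the cut-off. *DICER1*, which cuts the precursor, had −0.17 (limma adjusted p = 0.0860), and *TUT7*, a terminal uridylyltransferase, had −0.10 (limma adjusted p = 0.615). *TUT4*, the other uridylyltransferase of this pathway, was below the filter, with 0.899 to 10.3 normalized counts over the 6 libraries. These last 4 genes were named after their values were seen.

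Mature let-7 was not measured in these libraries. Of 9 listed transcripts that host let-7 genes, 3 were rows of the table and were tested. None of the 3 was called, where 7.85% of all tested genes were. *HUWE1*, a ubiquitin ligase whose gene holds let-7f-2 and miR-98, had 16632 ± 514 normalized counts in control and 21132 ± 745 in KO cells (SD, n = 3 each, log2 fold change 0.35, limma adjusted p = 0.00793). *WDR82*, the host of let-7g, had 0.12 (limma adjusted p = 0.496), and *SPACA6*, which overlaps the let-7e locus, had −0.24 (limma adjusted p = 0.216). A host mRNA does not give the level of the mature microRNA.

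Listed let-7 targets were called in both directions. Of 57 tested targets outside the 8 members, 2 were called higher and 2 lower, where 5.77% and 2.08% of all tested genes were called, and their median log2 fold change was 0.0053. *ACVR1C*, a receptor of the activin and Nodal pathway, had 54.9, 54.8 and 65.3 normalized counts in control and 97.9, 125.3 and 122.3 in the clones (log2 fold change 0.97, standard error 0.17, limma adjusted p = 0.0130). *BACH1*, a haem-sensing transcription repressor, rose from 2009 ± 76.4 to 3531 ± 237 (SD, n = 3 each, limma adjusted p = 0.000777). *CDK6*, a kinase of the G1 phase, fell from 3198 ± 94.8 to 2260 ± 353 (SD, n = 3 each, limma adjusted p = 0.0262). *BACH1*, *CDK6* and *TRIM71* were named after their values were seen. The lower count went to 1 with rescaling by the 75th percentile and with edgeR. *TRIM71*, a fetal let-7 target and RNA-binding ubiquitin ligase, was low, with 8.01, 7.83 and 12.6 normalized counts in control and 15.8, 17.3 and 18.9 in the clones (limma adjusted p = 0.121). With a control mean of 9.48, it reached the minimum of 10 only through the KO libraries.

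The number of seed matches was then set beside the fold change for the 12489 tested genes with a MANE Select transcript. *HMGA2*, with 7 matches, had more than any of them except *TRIM71*. A 3′ UTR without a match was found in 82.0% of these genes, and the octamer in 4.34%. The median log2 fold change was −0.0047 for 10238 genes with 0 matches, −0.0091 for 1832 genes with 1, −0.020 for 323 genes with 2 and −0.0047 for 96 genes with 3 or more. The share called higher was 5.65%, 6.66%, 6.81% and 5.21% in the same order, and the share called lower was 1.99%, 2.95%, 0.929% and 2.08%. The medians of these 4 bins were all within 0.020 of 0. The 8 genes with 5 or more matches, *HMGA2* included, had a median log2 fold change of 0.27, with medians of 0.38, 0.21 and 0.44 in clones 1 to 3, and 2 of the 8 passed the cut-off. Beside *HMGA2*, 7 tested genes held 5 or more matches, among them *ARID3B*, *TRIM71* and *NR6A1*, and of the 7 *CLCN5*, a chloride-proton exchanger, was called higher (log2 fold change 0.51, limma adjusted p = 0.00499). *HEMK1* had 0.48 (limma adjusted p = 0.00683), just under the fold-change cut-off, and *TRIM71* had 0.83 (limma adjusted p = 0.121). Long 3′ UTRs hold more matches, with a median length of 1092 bases at 0 matches and 7054 at 3 or more.

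**Figure D4:**
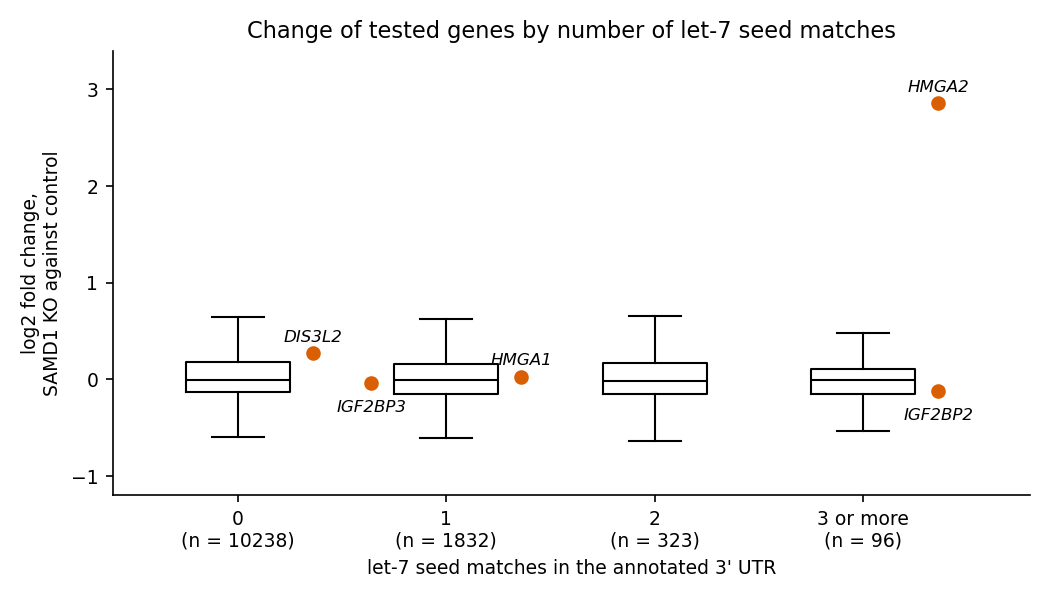
Log2 fold change in *SAMD1* KO cells by the number of let-7 seed matches in the annotated 3′ UTR, for 12489 tested genes. Boxes span the quartiles with the median as a line and whiskers reach 1.5 times the box, orange points beside the boxes are the 5 tested members (*IGF2BP3* and *HMGA1* flank the bin of 1 match), and other genes beyond the whiskers are not drawn. The medians of the 4 bins lie between −0.020 and −0.0047, and *HMGA2* is at 2.86 in the bin of 3 or more.

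Genes reported to act with HMGA2 or downstream of it gave 2 called higher and 0 lower of 16 tested outside the members, where 5.77% and 2.08% of all tested genes were called, with a median log2 fold change of −0.021. *JUNB*, a subunit of the AP-1 transcription factor, had 279.1, 348.3 and 263.5 normalized counts in control and 476.6, 698.1 and 671.9 in clones 1 to 3 (log2 fold change 1.04, standard error 0.18, limma adjusted p = 0.0110). *ZEB1*, a transcription factor of the epithelial-mesenchymal transition, had 2059, 1982 and 2063 in control and 3138, 3023 and 3056 in the clones (log2 fold change 0.59, limma adjusted p = 0.000895). Among the clones *JUNB* was lowest in clone 1, where *HMGA2* was highest, and *ZEB1* lay between 3023 and 3138 in all 3. Each clone is 1 library, and a relation of either gene to *HMGA2* was not tested. *PLAG1*, a fetal transcription factor often placed next to HMGA2 in growth control, had 698.9, 738.7 and 687.3 normalized counts in control and 1201, 618.6 and 1070 in the clones (limma adjusted p = 0.299), and *IGF2*, its target, had at most 1 read per library, and both were named after their values were seen.

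Other lists around these families gave no calls, where 7.85% of all tested genes were called in either direction. Of 11 tested oncofetal genes outside the members, 0 were called in either direction (median log2 fold change 0.032), and *AFP*, *CEACAM5* and *PEG3* had no reads in any library. *PEG10*, an imprinted gene of retroviral origin active in placenta and liver cancer, was the one named here after its values were seen, with 3340, 3578 and 3436 normalized counts in control and 3629, 4349 and 4012 in the clones (limma adjusted p = 0.115). Of 16 tested m6A writers, erasers and other readers 0 were called (median −0.10), of 16 partners and mRNA targets of the IGF2BP proteins 0 were called (median −0.077), and of 16 HMG-box, HMGN and linker histone genes 0 were called (median 0.027). *MYC*, whose mRNA is bound by IGF2BP proteins, had a log2 fold change of 0.057 (limma adjusted p = 0.554), again named after their values were seen.

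The genes whose profile over the 6 libraries was most like that of *HMGA2* were found by Pearson's r of log2(normalized count + 1), among 1293 tested genes with an SD of at least 0.5. They were *CLDN9* (r = 0.997), a claudin, *SYNM* (0.994), the intermediate filament protein synemin, *HOXC8* (0.992), a homeobox factor, *PMP22* (0.991), a peripheral myelin protein, and *ITGB3* (0.989), the integrin beta-3 chain. *CLDN9* was near the filter on low values, with 9, 11 and 10 reads in the control replicates and 47, 23 and 19 in clones 1 to 3, and it was not called. With Spearman's rho the same 5 genes had 0.771 to 1.00. In each of them clone 1 was highest, at 4.29-fold, 2.54-fold, 3.44-fold, 2.49-fold and 4.98-fold the control mean, all less than the 26.0-fold of *HMGA2*. In all, 30 genes had an r above 0.95. The points share libraries, size factors and the split between the groups, and genes that differ between control and clone 1 score high by construction, so these values are a description without a test.

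**Figure D5:**
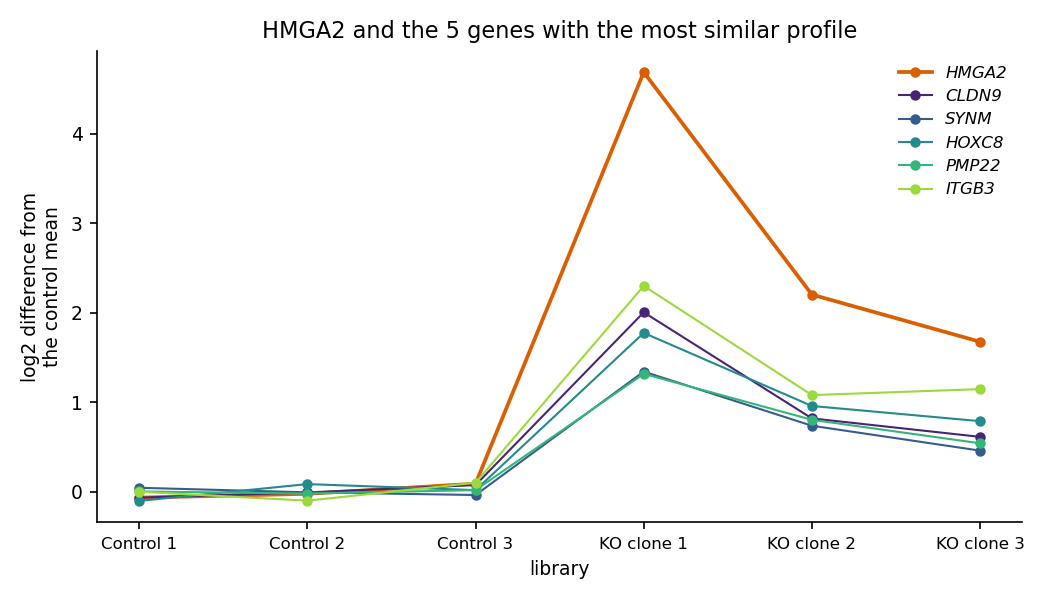
Log2 difference from the control mean in each of the 6 libraries for *HMGA2* (orange) and the 5 genes with the most similar profile by Pearson's r. Lines join libraries to guide the eye and carry no order. Every line is near 0 in the control libraries and highest in clone 1, where *HMGA2* reaches 4.69.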

How the data were processed

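RNA was sequenced from 3 control and 3 *SAMD1* KO samples of PaTu8988t cells with a stranded mRNA kit. The authors aligned reads to the GenCode transcriptome with RNA-STAR, and per the labels used hg38, featureCounts and DESeq2. The counting's strand setting is not given in the sources used here. The deposited signal is a normalized count, that is reads divided by 1 size factor per library. Whole reads were recovered for 100% of the values (tolerance 0.001 read). Columns left unused numbered 0. A deposited table of the authors' own comparison (mean, log2 fold change, standard error, statistic and p-values) was not used.

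The 12773 genes whose mean normalized count reached 10 were fitted on log2(normalized count + 1) with limma 3.58.1 (eBayes with trend, R 4.3.3), two-sided, without a block, and p-values were adjusted by Benjamini-Hochberg over these genes. An exact permutation test of 3 against 3 cannot go below 0.1, so none is given. Alternatives were pseudocounts of 0.1 and 10, no filter or a minimum of 50, 75th percentile rescaling, a block for the replicate number, each library left out, an adjusted p below 0.05 in the cut-off, edgeR 4.0.16 and DESeq2 1.42.0 on recovered reads. On simulated data for this comparison (12773 genes, 200 changed 2-fold) limma, edgeR and DESeq2 recovered 195, 196 and 192 changed genes and called 15, 16 and 0 unchanged ones. The simulated counts had the same dispersion for every gene in both groups. They do not carry the wider spread between the clones, so these numbers do not give the recovery in the real data. Replicate pairs differed by more than sampling noise, with a chi-square per degree of freedom of 2.64 to 5.19 among control replicates and 50.9 to 58.5 among clones.

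Positions and 3′ UTRs are from GENCODE 44 (GRCh38), with 19728 symbols matched, 182 of them through older names. microRNA sequences are from RefSeq. Named genes are the 8 members, *SAMD1*, up to 3 called genes of each list, the 5 genes most like *HMGA2*, the nearest tested gene on each side of each member and called genes beside *HMGA2* and *IGF2BP1*, and the text says where others were added. Some genes that this rule would name are not reported here. The members and lists were chosen with earlier results of these data known. Where nothing shows that control replicates came from separate cultures, p-values measure the spread between these samples.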

Additional observations from a re-analysis of the deposited data

How the results depend on the processing

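Over 14 other settings the log2 fold change of *HMGA2* stayed between 1.94 (without clone 1) and 3.50, and those of *IGF2BP2* and *IGF2BP3* stayed between −0.14 and −0.092 and between −0.055 and −0.020, with adjusted p-values of at least 0.109. *HMGA1* changed sign without clone 3 (−0.011) and otherwise stayed at or below 0.086, above the threshold throughout. *DIS3L2* kept its direction (0.25 to 0.29), with an adjusted p from 0.00683 to 0.148. With the replicate block its value was 0.27 and its adjusted p 0.0684. The replicate numbers did not show a pairing (correlations of same-numbered deviations 0.039, 0.13 and 0.032, with control replicate 3 closer to clone 1 at 0.036), and the block gave 725 genes called higher and 259 lower. The block changed no other call among the members and left the lists' counts as they were, except that 3 let-7 targets instead of 2 were called higher.

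The counts of 737 genes called higher and 266 lower ran from 569 to 859 and from 177 (without control replicate 2) to 369 (without clone 3). edgeR called 779 higher and 247 lower, and DESeq2 830 and 265. Among the lists, 1 gene of the IGF2BP partner list was called higher with a pseudocount of 10, 1 let-7 target was called lower with 75th percentile rescaling and with edgeR, 1 HMG-box or HMGN gene was called higher with DESeq2, and 0 genes of let-7 biogenesis were called with an adjusted p below 0.05 in the cut-off. With each library left out, 0 to 1 let-7 biogenesis genes, IGF2BP partners, oncofetal genes and HMG-box or HMGN genes were called higher, and 0 to 2 oncofetal genes, 0 to 1 HMGA2-associated genes and 0 to 1 HMG-box or HMGN genes were called lower. The libraries whose absence gave these counts were control replicate 2 for the IGF2BP partners, clone 1 (2 lower) and clone 2 (1 higher) for the oncofetal genes, clone 3 for the HMGA2-associated genes, and clone 1 or clone 3 for the HMG-box and HMGN genes. The causes were not tested. At 0 to 2 reads per library, the depth was too low to compare *LIN28A*, *LIN28B* and *IGF2BP1*.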
